A study of Mus musculus with 4 samples.

Results

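The genes described here are 9 members of a feedback module of receptor tyrosine kinase and ERK signalling: the Sprouty genes Spry1, Spry2 and Spry4, the Spred genes Spred1, Spred2 and Spred3, and the ETS factor genes Etv1, Etv4 and Etv5. They were picked by symbol, as 9 of the 17575 genes listed in any library, by a rule that uses no measured value but was written with earlier results of these data known. All 9 were listed in all 4 libraries and passed the filter on low counts. RNA-seq was made from rib chondrocytes of 10-day-old C57/Bl6 mice. Rib cartilage was digested overnight with collagenase in serum-containing medium, and the cells were plated before RNA was taken, so the values are those of plated cells. The wild type group has 2 libraries, and so has the group called knockout here, whose mice carry the transgene Col2Cre(Tg) with Kdm6a(fl/fl) and Kdm6b(fl/fl). The series text speaks of triplicates, and the 4 libraries used here are 2 per group. In these mice a Cre recombinase driven by Col2, a collagen gene of chondrocytes, acts on loxP-flanked Kdm6a and Kdm6b, which encode histone H3 lysine demethylases. The labels do not say whether wild type mice carried Cre, or whether a library came from 1 animal or a pool, and the spread behind each p-value is that between these libraries, which may be technical.

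Sprouty proteins are induced by growth factor signals and then dampen the RAS to ERK cascade that induced them. Spred proteins are their relatives and bring the RAS inactivator neurofibromin to the membrane. Etv1, Etv4 and Etv5 form the PEA3 group of ETS transcription factors, whose genes are switched on downstream of FGF receptors. In growth cartilage FGF receptor 3 acts through this cascade to restrain chondrocyte growth. The repressor Capicua binds genes of this kind until ERK relieves it.

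Estimated counts summed to between 31178248 and 32332044 per library. Kdm6b fell 2.56-fold in the knockout libraries and Kdm6a 1.82-fold (edgeR adjusted p = 0.00174 and 0.00489). The chondrocyte label matched the data: Col2a1 measured at least 24400 CPM, the count per library size after TMM scaling, which corrects for library composition. Chondrocyte markers summed to 45900 and 44500 CPM in wild type and 63000 and 60500 CPM in knockout, and of the 12 markers 4 rose and 2 fell. Markers of other cell types or states were detected at lower levels. Macrophage markers summed to 169 and 177 CPM in wild type and 89.4 and 104 CPM in knockout, and 2 of 7 tested fell. Most of these sums came from Cd14, at 125 and 132 CPM in wild type and 61.4 and 76.2 CPM in knockout. Endothelial markers summed to 124 and 116 CPM in wild type and 89.9 and 76.9 CPM in knockout, and 3 of 8 fell. Erythroid markers summed to 22.5 and 27.3 CPM against 10.5 and 12.1 CPM, and 3 of 5 fell. Osteoblast markers summed to 8.86 and 8.85 CPM against 3.36 and 4.48 CPM, and 1 of 6 fell. Markers shared by fibroblasts and dedifferentiated chondrocytes summed to 1120 and 1600 CPM against 724 and 1010 CPM, and 2 of 8 fell. Skeletal muscle markers summed to 10.1 and 9.74 CPM against 7.41 and 26.4 CPM, and 1 of 6 rose. No macrophage or endothelial marker tested was at 0 in any library, and Bglap2, an osteoblast marker, was at 0 in knockout replicate 1. Tested markers had already passed the filter on low counts, as 7 of 8 macrophage and 8 of 8 endothelial markers did. The part of these cells in the results below was not tested. In bulk RNA, fewer cells of a type and less RNA per cell cannot be told apart.

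Promoters of members are shown to give the sequence beside the measured genes: Spry2, which fell, Spry1, its close relative that did not pass, and Spred3 and Etv5, which hold Capicua-type words. Windows of 7 of the 9 members were searched, at 9 start sites of the RefSeq promoter table of build GRCm38.p6. No window of Spry4, which also fell, or of Etv4 was searched, so the member counts below leave out both genes. The 250 bases before each start were searched on both strands for the Capicua octamer (TGAATGAA, TGAATGGA, TCAATGAA or TCAATGGA), for its core TGAATG, which is part of TGAATGAA and TGAATGGA, and for the ETS word CCGGAAG. Capitals mark a Capicua octamer or core, and each sequence runs 5′ to 3′ along its gene.
Spry2, chr14:105896820-105897069, minus strand: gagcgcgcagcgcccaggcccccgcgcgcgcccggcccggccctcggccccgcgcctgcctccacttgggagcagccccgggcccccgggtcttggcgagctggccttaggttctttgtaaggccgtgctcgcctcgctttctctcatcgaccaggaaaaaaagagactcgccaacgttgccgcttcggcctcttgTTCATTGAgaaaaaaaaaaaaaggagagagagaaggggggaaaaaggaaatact
Spry1, chr3:37639697-37639946, plus strand: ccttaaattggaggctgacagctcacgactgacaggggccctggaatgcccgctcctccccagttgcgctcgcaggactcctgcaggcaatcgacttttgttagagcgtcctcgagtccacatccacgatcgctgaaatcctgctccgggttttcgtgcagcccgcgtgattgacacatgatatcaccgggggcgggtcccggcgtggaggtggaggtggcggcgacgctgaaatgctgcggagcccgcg
Spred3, chr7:29168648-29168897, minus strand: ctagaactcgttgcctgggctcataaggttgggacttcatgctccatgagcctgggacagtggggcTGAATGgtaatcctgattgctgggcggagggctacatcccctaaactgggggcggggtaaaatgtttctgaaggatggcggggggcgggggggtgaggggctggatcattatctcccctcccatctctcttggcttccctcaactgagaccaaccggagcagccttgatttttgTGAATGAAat
Etv5, chr16:22438369-22438618, minus strand: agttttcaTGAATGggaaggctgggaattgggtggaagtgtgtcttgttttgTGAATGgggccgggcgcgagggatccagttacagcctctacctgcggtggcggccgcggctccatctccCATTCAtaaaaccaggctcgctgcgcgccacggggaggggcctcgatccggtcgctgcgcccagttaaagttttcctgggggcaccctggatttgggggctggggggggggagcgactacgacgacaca
The Spry2 window holds 1 octamer, TCAATGAA read on the opposite strand, which begins 54 bases before the start. The Spred3 window holds TGAATGAA 10 bases before the start and a further core 184 bases before it. This Etv5 start site, 1 of 2 in the table, has 3 cores and no octamer, and the Spry1 window has neither. An octamer stands in 2 of the 9 member windows searched and in 3.19% of the 32851 windows of all genes. The core stands in 2 of the 9 member windows searched and in 10.9% of all windows. It occurs 3 or more times in 0.131% of all windows, a cut that equals the count in this Etv5 window. CCGGAAG is in 0 of the 9 member windows searched and in 6.91% of all. These matches describe letters and were not measured as bound sites.

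Of the 9 members 2 fell in the knockout libraries, Spry2 and Spry4, and 0 rose (edgeR adjusted p under 0.05). Among all 13773 tested genes 5.63% fell, 3.62% rose and 9.25% passed in either direction. The groups did not overlap for 7 members, 6 lower and 1 higher in knockout, and the same held for 61.7% of all tested genes, 30.7% lower and 30.9% higher. Separated groups were therefore common in this comparison. An unadjusted p under 0.05 was found for 7 members and for 4016 of all tested genes. The median log2 fold change was -0.29 for the members and 0.0044 for all tested genes. Macrophage and endothelial markers had medians of -0.76 and -0.49, and osteoblast and erythroid markers of -1.68 and -1.1. The median was -0.157 for fibroblast and dedifferentiated chondrocyte markers, 0.265 for chondrocyte markers and 0.933 for skeletal muscle markers. Spry2 stood in place 26 of all tested genes by p-value, and 173 of the 776 genes that fell had a larger fall.

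Among the Sprouty genes, Spry2 (gene 24064) and Spry4 (gene 24066) were lower in both knockout libraries, and Spry1 (gene 24063) was not. Spry2, a broadly used inhibitor of FGF signalling, measured 155.5 and 155.0 CPM in the wild type libraries and 74.6 and 67.6 CPM in the knockout libraries. The groups lay far apart, and the wild type replicates nearly coincided. Spry2 fell 2.18-fold, with a log2 fold change, knockout minus wild type, of -1.13 (SE 0.079, 95% interval -1.32 to -0.94, n = 2 each, edgeR adjusted p = 0.00182). Spry4 measured 20.7 and 18.7 CPM in wild type and 10.25 CPM in each knockout library. It fell 1.92-fold, with a log2 fold change of -0.94 (SE 0.11, 95% interval -1.21 to -0.68, n = 2 each, edgeR adjusted p = 0.00828). The 95% intervals of the 2 genes overlapped. Spry1 measured 6.42 and 5.56 CPM in wild type and 5.95 and 6.08 CPM in knockout, so that the knockout values lay between the wild type values. The log2 fold change of Spry1 was 0.0047 (SE 0.15, edgeR adjusted p = 0.988). The 95% interval, -0.36 to 0.37, does not reach the change of Spry2 or Spry4. Spry3, a Sprouty gene outside the set, measured 1.07 and 1.22 CPM in wild type and 1.98 and 2.70 CPM in knockout, with a log2 fold change of 1.03 (SE 0.28, n = 2 each, edgeR adjusted p = 0.0696). The edgeR calls needed both wild type libraries. With wild type replicate 1 left out edgeR called 0 genes, with 3442 at an unadjusted p under 0.05, and with replicate 2 left out 0 genes, with 2587, so 0 members passed in either fit. The adjusted p was then 0.0992 and 0.158 for Spry2 and 0.111 and 0.177 for Spry4, whereas DESeq2 called Spry2 in both cases (adjusted p = 1.93e-08 and 1.42e-08) and gave 0.0793 and 0.0202 for Spry4.

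**Figure D1:**
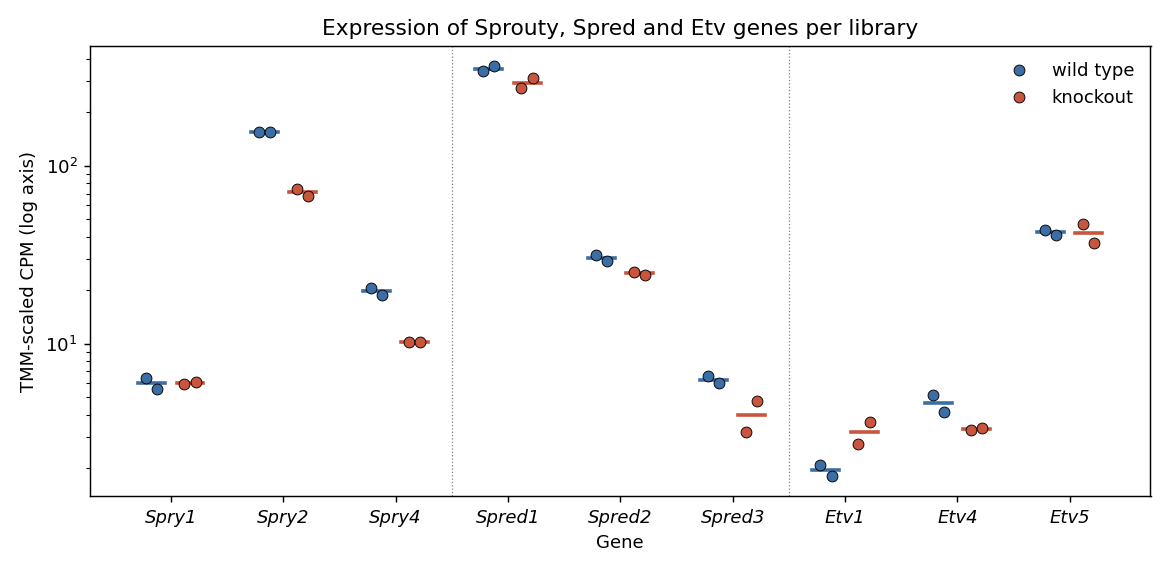
TMM-scaled CPM of the 9 genes on a log axis. Points are libraries, bars are group means, and dotted lines separate the Sprouty, Spred and Etv genes. Spry2 and Spry4 show the widest gaps between wild type and knockout among the Sprouty genes, and the Spry1 and Etv5 points overlap.

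Each of the 3 Spred genes measured lower in both knockout libraries than in both wild type ones, and none passed the test. Spred1 (gene 114715), the most abundant of them, measured 342 and 363 CPM in wild type and 275 and 313 CPM in knockout. Its log2 fold change was -0.26 (SE 0.089, 95% interval -0.48 to -0.05, edgeR adjusted p = 0.116). Spred2 (gene 114716) measured 31.4 and 29.3 CPM against 25.4 and 24.4 CPM, a tight separation of small size. Its log2 fold change was -0.29 (SE 0.086, 95% interval -0.49 to -0.08, edgeR adjusted p = 0.0871). Spred3 (gene 101809) was the least abundant, at 6.58 and 5.99 CPM against 3.17 and 4.79 CPM, and its knockout libraries differed most from each other. For Spred3 the log2 fold change was -0.66 (SE 0.22, 95% interval -1.20 to -0.12, edgeR adjusted p = 0.115). Without knockout replicate 2 Spred3 passed, at -0.98 with an edgeR adjusted p of 0.0266, beside Spry2 and Spry4, as 3 members. The intervals of Spred1 and Spred2 do not reach the change of Spry2 or Spry4, and that of Spred3 does.

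The 3 Etv genes did not move together, and none passed. Etv5 (gene 104156), the main PEA3 gene in these cells, measured 43.7 and 40.9 CPM in wild type and 47.1 and 36.8 CPM in knockout, so both wild type values lay inside the knockout range. Its log2 fold change was -0.013 (SE 0.13, 95% interval -0.31 to 0.29, edgeR adjusted p = 0.957). Etv4 (gene 18612) measured 5.12 and 4.12 CPM against 3.27 and 3.35 CPM. For Etv4 the log2 fold change was -0.48 (SE 0.19, 95% interval -0.94 to -0.03, edgeR adjusted p = 0.153). Etv1 (gene 14009) was the 1 member that measured higher in both knockout libraries, at 2.72 and 3.65 CPM against 2.09 and 1.81 CPM. Its log2 fold change was 0.71 (SE 0.25, 95% interval 0.12 to 1.30, edgeR adjusted p = 0.121), and it rested on 55 to 119 counts per library, the lowest of the members. The intervals of Etv1 and Etv4 do not overlap each other.

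**Figure D2:**
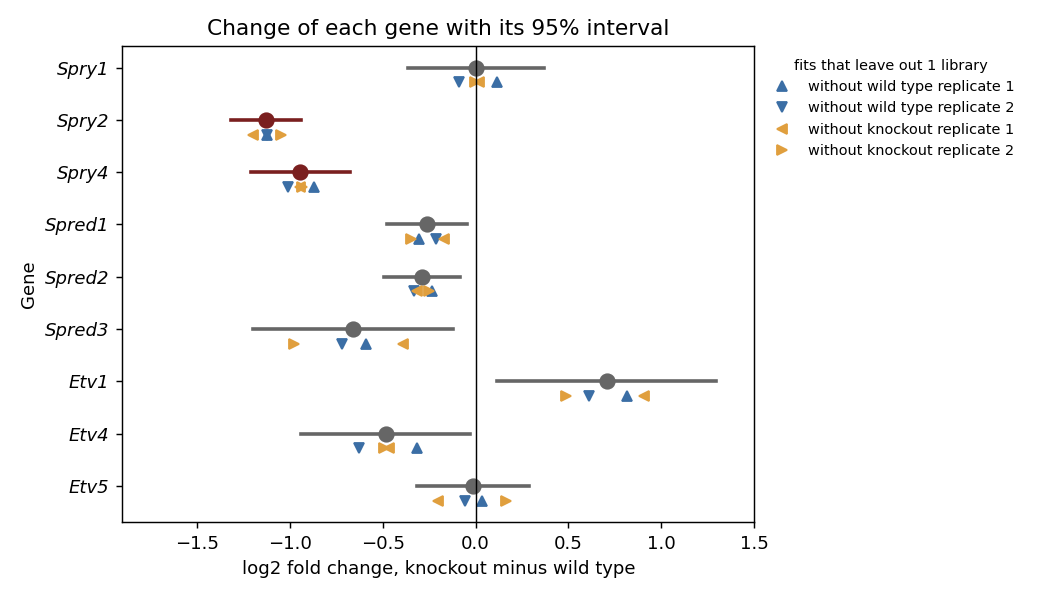
Log2 fold change of each gene, knockout minus wild type. Circles are the edgeR values with all 4 libraries, dark red where the adjusted p is under 0.05, bars are 95% intervals, and triangles are the values with 1 library left out. Spry2 and Spry4 stay between -1.20 and -0.87 whichever library is left out, while Spry1 and Etv5 fall on both sides of 0.

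Levels can be compared between genes only per transcript length, as FPKM. In both wild type libraries Spry2 ranked first of the 9 genes, at 74.1 and 72.0 FPKM, ahead of Spred1 at 54.0 and 55.7 FPKM. In both knockout libraries the order was the other way round, with Spred1 at 43.9 and 50.0 FPKM and Spry2 at 36.0 and 32.6 FPKM. The ratio of Spry2 to Spred1 FPKM was 1.37 and 1.29 in wild type and 0.822 and 0.652 in knockout. Spry4 and Spry1 changed places in the same way, lower down the scale. Spry4 measured 4.45 and 3.93 FPKM in wild type, above Spry1 at 2.68 and 2.44 FPKM, and 2.24 and 2.23 FPKM in knockout, below Spry1 at 2.67 FPKM in each library. Their ratio was 1.66 and 1.61 in wild type and 0.839 and 0.835 in knockout. Etv5 (9.61 to 12.4 FPKM) and Spred2 (8.56 to 10.9 FPKM) came after Spry2 and Spred1 in every library, and their ranges overlapped in wild type and not in knockout. Etv4 (1.42 to 2.2 FPKM), Spred3 (0.78 to 1.60 FPKM) and Etv1 (0.43 to 0.88 FPKM) came last in every library, and Spred3 and Etv1 overlapped in knockout. With 2 libraries against 2, an exact permutation test cannot give a two-sided p below 0.333, so these orders and ratios are described without a test.

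Each family drew most of its transcript from 1 gene. Spry2 made up 91.5% ± 0.46 (SD, n = 2) of the FPKM of its family in wild type and 87.5% ± 0.77 (n = 2) in knockout. The share of Spry1 was 3.21% ± 0.13 in wild type and 6.82% ± 0.43 in knockout (n = 2 each), while that of Spry4 was 5.24% ± 0.33 and 5.71% ± 0.34. Spred1 made up 82.1% ± 1.3 and 82.8% ± 1.3 of the Spred FPKM, and Etv5 81.7% ± 1.5 and 83.0% ± 3.6 of the Etv FPKM. The Sprouty sum was 81.3 and 78.4 FPKM in wild type and 41.0 and 37.5 FPKM in knockout. The Spred sum was 66.5 and 67.0 FPKM against 53.6 and 59.7 FPKM. The Etv sum was 14.0 and 12.5 FPKM against 14.4 and 11.9 FPKM. Summed Sprouty transcript therefore exceeded summed Spred transcript in both wild type libraries and lay below it in both knockout libraries, and the Etv sums overlapped. Within the PEA3 group the ratio of Etv4 to Etv1 FPKM was 4.31 and 4.0 in wild type and 2.12 and 1.65 in knockout.

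**Figure D3:**
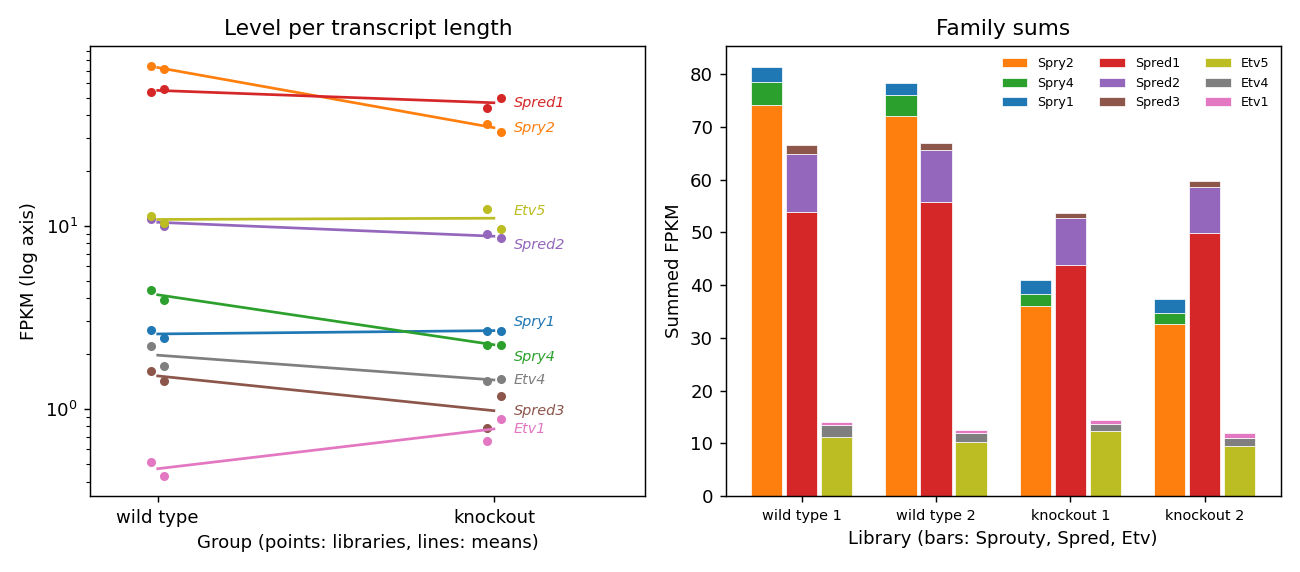
Left, FPKM of the 9 genes on a log axis, with points for libraries and lines joining group means. Right, FPKM summed within each family and library. The lines of Spry2 and Spred1 cross, as do those of Spry4 and Spry1, and the Sprouty bar lies below the Spred bar in both knockout libraries.

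The genes whose pattern over the 4 libraries lay nearest to Spry2 were Rap2b, Scube1 and Hspa1b, at distances of 0.029, 0.055 and 0.076 on the log2 scale, among the 9837 genes that averaged 5 CPM or more. Rap2b, which encodes a small GTPase of the RAS superfamily, measured 152 and 150 CPM in wild type and 70.9 and 65.8 CPM in knockout. Scube1 encodes a secreted and cell surface protein, and the heat shock gene Hspa1b has a near-identical copy, so its split of reads is uncertain. Nearest to Spry4 were Jun, an AP-1 factor gene, at 0.038, the glycogen phosphorylase gene Pygb at 0.081 and the scaffold protein gene Slc9a3r1 at 0.084. Over 4 libraries such distances describe closeness and nothing more.

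Around the members, receptor and ligand genes moved in both directions. Among the FGF receptors, their ligands and cofactors 21 genes were tested, and of these 3 rose and 1 fell (median log2 fold change 0.023), and 17 missed the threshold. Fgfr3 measured 111 CPM in each wild type library and 202 and 216 CPM in knockout, a 1.88-fold rise (edgeR adjusted p = 0.00242). The decoy-like receptor gene Fgfrl1 rose 1.57-fold and Fgfr2 1.92-fold (edgeR adjusted p = 0.006 and 0.0109). The ligand gene Fgf2 fell 2.07-fold, from 14.0 and 11.6 CPM to 7.17 and 5.19 CPM (edgeR adjusted p = 0.0247). Fgf2 has an overlapping antisense neighbour, and no source read here says that counting kept the strands apart, so its value is uncertain. The rises of these 3 receptor genes and the falls of Spry2 and Spry4 come from the same comparison, as for every changed gene here. A link between them was not tested.

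Of 24 tested genes of adaptors, RAS proteins and the RAF, MEK and ERK kinases 0 rose and 1 fell (median log2 fold change -0.058), and 23 missed the threshold. The gene that fell was Shc1, an adaptor of receptor tyrosine kinases, by 1.24-fold (edgeR adjusted p = 0.0431). The RAS and RAF genes Mras, Hras and Araf had log2 fold changes of 0.29, 0.18 and 0.19 and did not pass. Of 13 genes of partners and regulators of Sprouty and Spred proteins 1 rose, 1 fell and 11 did not pass. Nedd4, a ubiquitin ligase gene, rose 1.39-fold, and Cblb, from the Cbl family of ubiquitin ligases that Sprouty proteins bind, fell 1.57-fold (edgeR adjusted p = 0.0148 and 0.00903). Cav1, the caveolin gene, had a log2 fold change of -0.54 (SE 0.15) and did not pass. Of 9 genes around Capicua and PEA3 protein turnover 0 rose, 1 fell and 8 did not pass. Cic, which encodes Capicua, measured 147 and 121 CPM in wild type and 125 and 116 CPM in knockout (edgeR adjusted p = 0.397). The coactivator gene Crebbp fell 1.28-fold, and Ep300 and Ddb1 had log2 fold changes of -0.12 and 0.23 without passing.

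Among other feedback genes and genes known to respond to ERK, those that passed all fell. Both lists were written with earlier results of these data known, so their counts are a description and not independent evidence. Of all tested genes 5.63% fell and 3.62% rose. Of 15 tested feedback genes outside the members 0 rose and 7 fell (median log2 fold change -0.43), and 8 missed the threshold. Dusp5 and Dusp4, which encode phosphatases of ERK in the nucleus, fell 3.37-fold and 2.10-fold. Dusp5 measured 39.6 and 35.7 CPM in wild type and 11.9 and 10.5 CPM in knockout (edgeR adjusted p = 0.00152). Peak1, a pseudokinase gene, fell 1.51-fold and is counted among the 7, though whether it acts as a feedback inhibitor was not tested. Errfi1, an inhibitor of the EGF receptor, fell 1.37-fold. Dusp6, the cytoplasmic ERK phosphatase that is often read together with Spry4 and Etv5, was singled out after its values were seen. It measured 193 and 190 CPM in wild type and 108 and 72.7 CPM in knockout, and fell 2.12-fold (log2 fold change -1.08, SE 0.17, edgeR adjusted p = 0.0166). Of 26 ERK-responsive target genes 0 rose and 13 fell (median log2 fold change -0.54), and 13 missed the threshold. Epha2, an ephrin receptor gene, fell 2.73-fold, the AP-1 factor gene Jun 1.87-fold, the urokinase receptor gene Plaur 2.05-fold and the angiogenic factor gene Vegfa 1.82-fold. Etv5 is itself such a target and, as given above, overlapped between the groups. Without wild type replicate 1 or 2 edgeR called 0 genes of either list, while DESeq2 called 3 and 5 of the feedback genes and 10 and 10 of the targets as fallen.

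**Figure D4:**
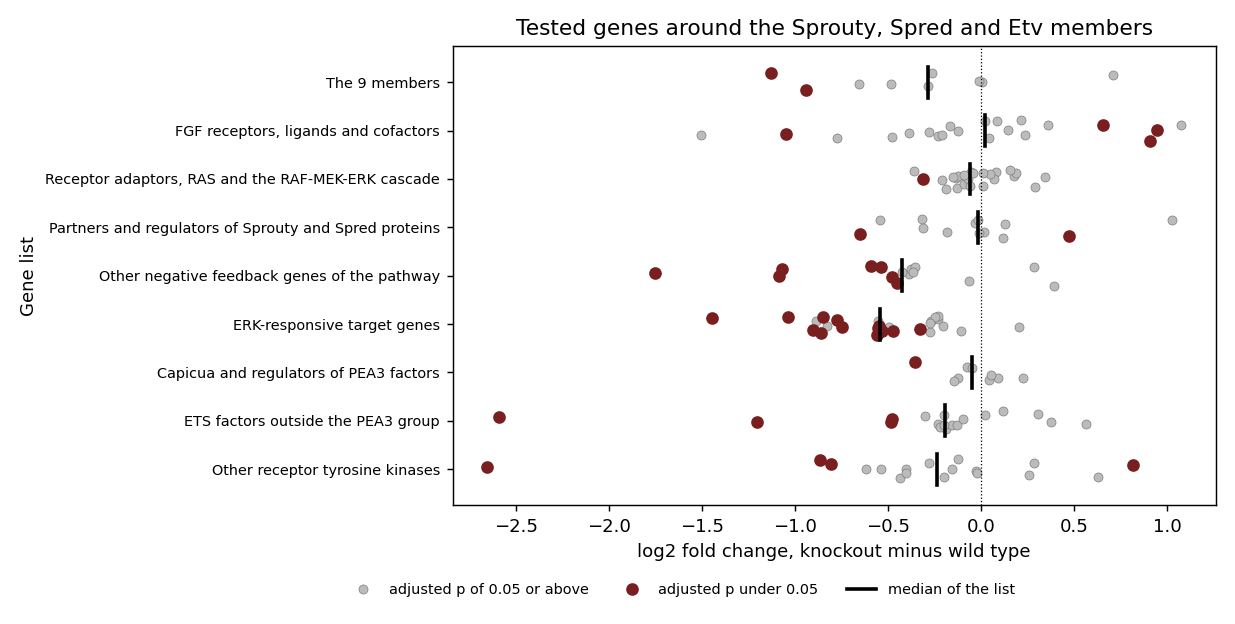
Log2 fold change, knockout minus wild type, of each tested gene in the lists around the 9 members. Each point is a gene, dark red where the edgeR adjusted p is under 0.05, and black bars are list medians. The cascade genes gather near 0, whereas the medians of the feedback and target lists lie at -0.43 and -0.54. The lists were written with earlier results of these data known.

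The authors' deposited table gave the same members past an adjusted p of 0.05. In the authors' deposited table Spry2 had a log2 fold change of -1.11 and Spry4 of -0.92, with adjusted p-values of 1.55e-23 and 1.44e-06. That deposited table from the authors marks Spry2 as down and leaves Spry4 unmarked, and no gene it marks has an absolute log2 fold change below 1.001. In the authors' deposited table the other 7 members had adjusted p-values from 0.12 for Spred1 to 0.995 for Spry1 and Etv5.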

How the data were processed

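Values came from 4 RNA-seq libraries of rib chondrocytes, grouped and numbered by their titles. The submitters' processing notes name Bowtie2 2.2.5 and build mm9. Neither the counting tool and its annotation nor the use of strand is stated there. The authors deposited an expected count, an FPKM value and a transcript length per gene and library, and a DESeq2 comparison with mean normalized signal, log2 fold change, p-value and adjusted p-value, per the file headers and file name. A gene not listed in a library was taken as 0.

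Rounded expected counts entered edgeR 4.0.16 under R 4.3.3 (TMM, filterByExpr, quasi-likelihood F test), with Benjamini-Hochberg adjustment over 13773 genes and a threshold of 0.05. Each SE was the absolute log2 fold change divided by the root of its F statistic. DESeq2 1.42.0 and limma 3.58.1 on log2(FPKM + 0.1) or log2(FPKM + 1), for genes with a mean FPKM of at least 0.5 or unfiltered, were alternatives, as were other scalings, no count filter, the replicate number as a block, 26 entries named by transcript summed with their genes, and leaving out each library. Both replicate pairs exceeded counting noise (chi-square per gene: 20.2, wild type, and 22.1, knockout) and counted as separate samples.

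Members and lists were chosen with earlier results of these data known. Named genes were the members, Kdm6a and Kdm6b, up to 4 genes per list with the smallest p-values, and the 3 nearest in pattern to each changed member. Others were named after their values were seen. For the Y-linked genes Ddx3y and Uty the 4 libraries listed 1.00 to 5.26 and 0 to 3.30 counts.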

Additional observations from a re-analysis of the deposited data

How the results depend on the processing

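Spry2 and Spry4 kept their direction in all 13 alternatives chosen at the outset, with log2 fold changes of -1.20 to -1.05 for Spry2 and -1.01 to -0.68 for Spry4, and passed in 10 of them. With limma on log2(FPKM + 0.1) and no filter on low values they measured -1.09 (adjusted p = 0.072) and -0.87 (adjusted p = 0.0895). No gene passed there and 0 members, with 4055 genes at an unadjusted p under 0.05, and more low genes were tested. With 1 library left out, edgeR gave -1.20 to -1.05 for Spry2 and -1.01 to -0.87 for Spry4, and called 0 to 1275 genes and 0 to 3 members. DESeq2, which called 1626 genes with all libraries, gave -1.20 to -1.05 and -1.01 to -0.87 there, and called 540, 416, 659 and 794 genes and 1 to 2 members. The DESeq2 fits without a library were chosen after seeing the data. Without a wild type replicate the lone library was assumed to vary like the knockout libraries. The cause of these losses was not tested. Without the count filter 720 genes passed, against 1274 with it.

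Etv5 lay near 0 and changed sign, at 0.013, 0.012 and 0.013 in the limma fits with pseudocounts of 0.1, 1 and 0.1 unfiltered, and from -0.20 to 0.17 (edgeR) or -0.21 to 0.16 (DESeq2) with 1 library left out, including 0.038 and 0.041 without wild type replicate 1. Spry1 ran from -0.0893 to 0.113 (edgeR) and from -0.0913 to 0.117 (DESeq2) with 1 library left out, with -0.00058 (edgeR) and -0.00078 (DESeq2) without knockout replicate 2. Of called genes 60.9% fell in edgeR and 47.6% with limma on log2(FPKM + 0.1).

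The titles number the replicates, and the deviations of libraries numbered 1 from their group means correlated across genes at 0.126. With the replicate block, edgeR called 2316 genes and the same count of 2 members, with -1.13 for Spry2 and -0.94 for Spry4. From expected counts in place of FPKM, which ignore length, Spry2 made up 85.8% of its family in wild type and 81.3% in knockout. The shares of Spry4 were then 10.9% and 11.8%, against 5.24% and 5.71% from FPKM. Those of Spred2 were 7.82% and 7.75%, against 15.6% and 15.5%, and those of Etv4 9.42% and 6.89%, against 14.7% and 11.0%. Spry2, Spred1 and Etv5 had the largest share of their family on both scales in both groups.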

Other observations

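Further genes related to the 9 members were measured. Of 18 tested ETS factor genes outside the PEA3 group 0 rose and 4 fell (median log2 fold change -0.20), and 14 missed the threshold. Etv3, which encodes a repressor of the ETS family, measured 43.5 and 46.9 CPM in wild type and 31.6 and 33.0 CPM in knockout, a 1.40-fold fall (edgeR adjusted p = 0.02). Elk4, a partner of serum response factor, fell 1.40-fold as well (edgeR adjusted p = 0.0278). The epithelial factor gene Elf3 was low, at 3.54 and 3.49 CPM against 0.885 and 0.276 CPM, and fell (edgeR adjusted p = 0.0216). Spi1, a factor of macrophages and other blood cells, fell 2.31-fold from 3.32 and 3.33 to 1.40 and 1.47 CPM (edgeR adjusted p = 0.0238). In the same libraries macrophage markers summed to 169 and 177 CPM against 89.4 and 104 CPM, mostly from Cd14.

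Of 18 tested genes of receptor tyrosine kinases outside the FGF receptors 1 rose and 3 fell (median log2 fold change -0.24), and 14 missed the threshold. Egfr fell 1.75-fold from 110 and 104 to 56.7 and 66.0 CPM (edgeR adjusted p = 0.00789), and Met, the receptor of hepatocyte growth factor, 1.83-fold (edgeR adjusted p = 0.0163). Ntrk2 measured 27.8 and 58.0 CPM in wild type and 6.35 and 7.27 CPM in knockout, and fell by 6.29-fold (edgeR adjusted p = 0.0102). Axl rose 1.76-fold, from 61.2 and 46.5 to 80.4 and 110 CPM (edgeR adjusted p = 0.0412).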
